A study of Mus musculus with 6 samples.

Results

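The eosinophil-associated ribonuclease (Ear) family was examined on 6 Illumina mouse arrays of lung antigen presenting cells, with 2 arrays in each of 3 groups. Members were the probes whose gene symbol in the platform annotation is Ear followed by digits, which gave 6 probes of 4 genes: Ear3 with 3 probes, and Ear6, Ear10 and Ear14 with 1 each. To these were added the 3 probes of the 2 genes whose older names were Ear11 (now Rnase2a) and Ear5 (now Rnase2b), so that 9 of the 45281 probes and 6 of the 19057 named genes are described. The family was taken up because Ear6 led the response to smoke in wild type cells, so the values of wild type smoke against air are given as a description with no test. No probe of the annotation used here was paired with Ear1 or Ear2.

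All mice were female and of the C57BL/6 strain. The WT Air group was wild type in room air, the WT smoke group was wild type given cigarette smoke for 4 months, and the Spp1-/- smoke group lacked Spp1, the gene of the secreted protein osteopontin, and was given smoke in the same way. There was no Spp1-/- group in room air, and no probe was paired with Spp1, so the genotype label was not checked. Whether both arrays of a group stand for different animals is not stated in the labels. The p-values therefore reflect the spread among these arrays alone, and that spread may be technical. The general treatment note of every sample names smoke, and the air group was taken from the exposure label of its own samples. The labels do not say how the antigen presenting cells were isolated. In such bulk samples, fewer cells of a type and less RNA per cell cannot be told apart.

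Ear proteins are small secreted enzymes of the ribonuclease A superfamily, which cut RNA outside cells or in granules. They are the mouse relatives of human eosinophil cationic protein and eosinophil-derived neurotoxin, which eosinophils store in their granules and which have antiviral and antibacterial activity. In the mouse lung, alveolar macrophages also transcribe members of the family, and in mice Ear11 is known as a chemoattractant of macrophages. The genes arose by repeated duplication, so their sequences are close and a probe named for 1 member may also bind transcripts of others. The probe sequences were not used here, so this binding was not checked.

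In the RefSeq gene table all family genes lie on chromosome 14, in 2 blocks. The first holds Ear1, Ear10 and Ear2, in that order. After 202 other annotated genes the second block holds Rnase2b, Ear14, Rnase2a and Ear6, with Ear14 and Rnase2a next to each other. Between Rnase2a and Ear6 lie 25 other annotated genes. Ear3 was not in this table, and its platform name was kept. The first block thus holds 1 gene with a probe, Ear10, whose signal was high in every group. The second holds the 3 genes with a probe at least 2-fold higher in both smoke groups, and Ear14, which stayed near the median of all probes. For Rnase2b this holds for its probe 2 alone. Ear3 has no position here, so block and direction in smoke cannot be compared over the family.

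The 250 bases before the annotated gene start are shown for the 4 genes with a probe above the brightness filter and a RefSeq promoter, because members whose values moved apart had closely similar promoters. Sequences are RefSeq's, on build GRCm38.p6. Ear6 is chr14:51853518-51853767 on the plus strand, Rnase2a chr14:51256113-51256362 on the minus strand, Rnase2b chr14:51162010-51162259 on the plus strand and Ear10 chr14:43923597-43923846 on the minus strand. Capitals mark a stretch of 19 bases, CATGTTGAAGACTCTGAGC, and a second one, TATATCTATGGGCCCAAGT, where a gene has them.
Ear6: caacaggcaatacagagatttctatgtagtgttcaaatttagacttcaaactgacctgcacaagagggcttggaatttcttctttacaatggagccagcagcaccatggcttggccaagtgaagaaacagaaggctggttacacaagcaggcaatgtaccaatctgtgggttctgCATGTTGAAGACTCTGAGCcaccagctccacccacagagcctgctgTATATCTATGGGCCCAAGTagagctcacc
Rnase2a: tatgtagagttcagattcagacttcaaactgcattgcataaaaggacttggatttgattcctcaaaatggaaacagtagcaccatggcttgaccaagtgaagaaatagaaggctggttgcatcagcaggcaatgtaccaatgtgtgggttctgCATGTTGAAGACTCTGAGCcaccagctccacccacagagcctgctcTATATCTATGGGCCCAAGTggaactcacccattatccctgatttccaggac
Rnase2b: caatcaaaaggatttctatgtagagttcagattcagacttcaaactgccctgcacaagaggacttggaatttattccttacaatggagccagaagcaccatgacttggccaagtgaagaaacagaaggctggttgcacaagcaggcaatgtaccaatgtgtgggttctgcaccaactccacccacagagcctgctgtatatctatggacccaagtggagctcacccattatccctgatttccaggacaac
Ear10: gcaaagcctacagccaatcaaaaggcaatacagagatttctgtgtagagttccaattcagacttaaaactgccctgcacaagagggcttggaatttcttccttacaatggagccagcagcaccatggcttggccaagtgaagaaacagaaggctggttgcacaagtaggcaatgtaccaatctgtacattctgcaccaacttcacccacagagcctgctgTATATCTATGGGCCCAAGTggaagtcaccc

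The Ear10 promoter was 92.2% identical to that of Ear6 over 231 aligned bases, and the longest gap in Ear10 was the 19 bases of the first stretch. With gaps counted as differences the identity was 85.2%. For Rnase2b and Ear6 it was 92.4% of aligned bases and 84.8% with gaps counted. Rnase2a held the same 19 bases, and its promoter was 88.2% identical to that of Ear6 by either count. The order of likeness to Ear6 thus depended on the count. Rnase2b, Ear10, Ear1, Ear2 and Ear14 did not hold the 19 bases, and over all 27025 promoters of the table only those of Ear6 and Rnase2a did. The Ear14 window opens with the bases that end the Rnase2b window, so it covers a later stretch. A feature absent from that window may lie before it. Rnase2b lacked the stretch. In WT smoke against WT Air its probe 2 differed by 2.44, and its dim probe 1 by 0.16. Whether probe 2 also binds transcripts of other members was not checked. Presence of the stretch and direction in smoke can therefore not be compared over the family. Any part of the first stretch in the smoke values was not tested. The second, the longest run of letters common to Ear1, Ear2, Ear10, Ear6 and Rnase2a, was in no other promoter of the table as an exact match. Rnase2b, which was left out of that search for a common run, held it with an a in place of a G. Both stretches were picked out after the promoters and the values had been seen.

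**Figure D1:**
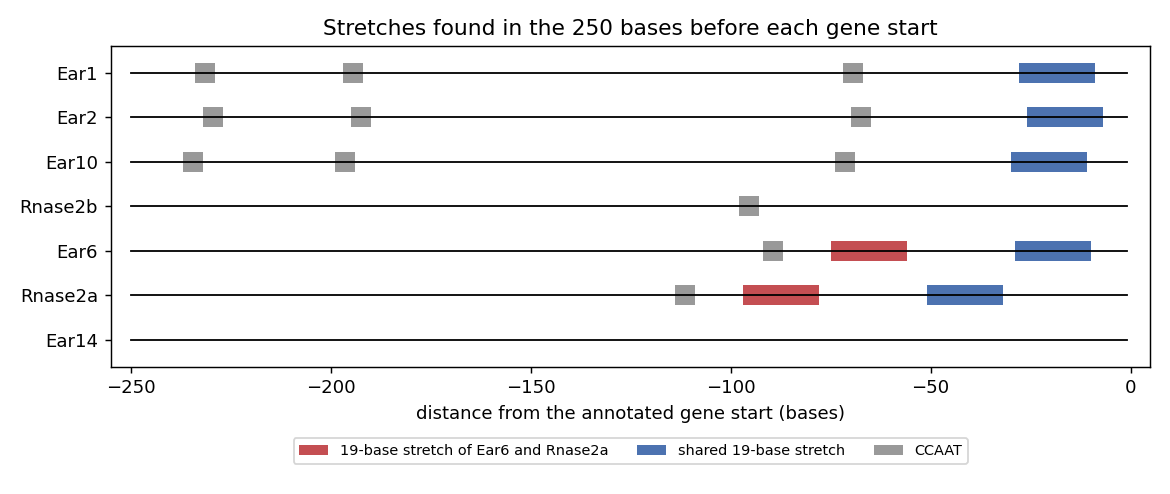
The map shows, for the 250 bases before each annotated gene start, the positions of the 19-base stretch of Ear6 and Rnase2a (red), of the second 19-base stretch (blue) and of CCAAT on either strand (grey), with distance from the gene start in bases on the horizontal axis. The red stretch is drawn in Ear6 and Rnase2a alone. Ear14 has none of the 3 features in its window, which opens with the bases that end the Rnase2b window and so covers a later stretch.

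Short motifs were searched on both strands of the same windows. CCAAT, the CCAAT box, was found in 6 of the 7 family promoters (all but Ear14) and in 34.46% of all promoters. TTGCNNAA, a C/EBP-like pattern, was found in 5 of 7 (Ear1, Ear2, Ear10, Rnase2a and Rnase2b) and in 9.55% of all. GAGGAAG (PU.1), GGAAGTG (ETS factors), TTC and GAA with 4 bases between them (STAT6) and TGANTCA (AP-1) were found in 0 of 7 and in 10.39%, 8.64%, 5.86% and 6.87% of all promoters. TTCNNNGAA, the spacing of other STAT factors, was found in Ear14 alone of the family and in 7.18% of all, and TGACCT, a nuclear receptor half-site, in Ear6 alone and in 13.84% of all. A match describes letters, and the near-identical promoters are not independent of each other. Since the Ear14 window covers a later stretch than the others, its matches and absences are not of the same region.

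All levels below are log2 intensities as deposited, with a lowest value of 6.619, a highest of 16.014 and a median over all probes of 7.264. Probes whose mean over the 6 arrays lay in the brighter part, 22641 of 45281, entered the fit, and 7 of the 9 family probes were among them. A probe dim in air or in smoke could thus enter through its other arrays, as Rnase2b probe 2 did. For such probes, in the gene lists too, a call in smoke against air is partly of a difference that let them in. Levels of different probes depend on the probes as well as on the transcripts, so levels are compared between groups within a probe. The 2 WT Air arrays correlated less with each other over all probes (r = 0.9773) than the 2 arrays of WT smoke (0.9917) or Spp1-/- smoke (0.9936).

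Ear6 went from near the median of all probes in air to a high signal in both smoke groups. Its values were 7.67 and 7.04 in the 2 WT Air arrays, 12.934 and 12.997 in the WT smoke arrays, and 13.14 and 13.39 in the Spp1-/- smoke arrays. The 4 smoke arrays thus lay far above both air arrays, and the air values differed more from each other than the values within either smoke group. The group means were 7.35 ± 0.45 (SD, n = 2) in WT Air, 12.97 ± 0.04 in WT smoke and 13.26 ± 0.18 in Spp1-/- smoke. In wild type this was a log2 difference of 5.61 ± 0.23 (SE of the fit), or 48.9-fold on the deposited scale. The deposited scale has a floor near the air values, and with the floor lowered (the minimum subtracted and an offset of 16 added on the linear scale) the same difference was 6.68. Among the 22641 probes Ear6 had rank 1 from the top in WT smoke against WT Air and also rank 1 in Spp1-/- smoke against WT Air, comparisons that share the air arrays.

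Rnase2b, the former Ear5, had 2 probes that differed from each other. Its probe 2 stood at 7.14 and 7.08 in WT Air, at 9.81 and 9.28 in WT smoke and at 9.71 and 10.08 in Spp1-/- smoke. Both smoke groups lay above the air arrays, and the smoke groups overlapped each other. The log2 difference in wild type was 2.44 ± 0.22 (SE), or 5.41-fold, and 3.57 with the floor lowered. Its probe 1 was too dim to enter the fit and stood at 6.99 and 7.11 in WT Air, 7.18 and 7.23 in WT smoke, and 7.30 and 7.20 in Spp1-/- smoke. Here too both smoke groups lay above the air arrays, but by differences of 0.16 and 0.20 near the median of all probes. The 2 probes thus differed in size. Probe 1 was so dim that its direction is not read as a result.

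Rnase2a, the former Ear11, stood at 7.86 and 8.77 in WT Air, 10.39 and 10.30 in WT smoke, and 9.75 and 10.11 in Spp1-/- smoke. The air arrays were the most spread, with a mean of 8.32 ± 0.64 (SD, n = 2), against 10.35 ± 0.06 and 9.93 ± 0.25 in the smoke groups. The difference of WT smoke from WT Air was 2.03 ± 0.32 (SE), or 4.08-fold, and it lay between 1.58 and 2.48 when 1 array was left out. It was the only member in the fit whose mean was lower in Spp1-/- smoke than in WT smoke.

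Ear3 and Ear10 were bright in every array, at percentiles 97.7 to 99.6 of all probes by mean level, and somewhat lower in WT smoke than in air. Ear3 probe 3, the brightest of the family, stood at 14.77 and 14.50 in WT Air, 13.75 and 13.94 in WT smoke, and 13.81 and 14.22 in Spp1-/- smoke. Both smoke groups lay below both air arrays, with a log2 difference of -0.79 ± 0.18 (SE) in WT smoke and -0.62 ± 0.18 in Spp1-/- smoke. Ear10 stood at 13.90 and 13.53 in WT Air, 13.24 and 13.28 in WT smoke, and 13.52 and 13.74 in Spp1-/- smoke. Here the WT smoke arrays lay below the rest, while the ranges of Spp1-/- smoke and WT Air overlapped. The difference of Spp1-/- smoke from WT Air was -0.09 for Ear10 and lay between -0.27 and 0.10 when 1 array was left out, so it had no settled direction.

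In the other Ear3 probes WT smoke was again the lowest group. Ear3 probe 1 stood at 13.19 and 12.83 in WT Air, 12.79 and 12.59 in WT smoke, and 13.14 and 13.16 in Spp1-/- smoke. Ear3 probe 2 stood at 13.01 and 12.65 in WT Air, 12.37 and 12.28 in WT smoke, and 12.77 and 12.72 in Spp1-/- smoke. In both, WT smoke did not overlap the other groups and lay below air by a difference of -0.33 ± 0.15 and -0.51 ± 0.14 (SE). These differences rested on the air arrays in part: without WT Air replicate 1 they were -0.15 and -0.33, and without WT smoke replicate 2 that of probe 1 was -0.23. By group means Spp1-/- smoke was the highest group for probe 1, and lay between the others for probe 2 as it did for Ear10. Ear14 was near the median of all probes, between 7.03 and 7.19 in all arrays, with overlapping groups, and did not enter the fit.

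**Figure D2:**
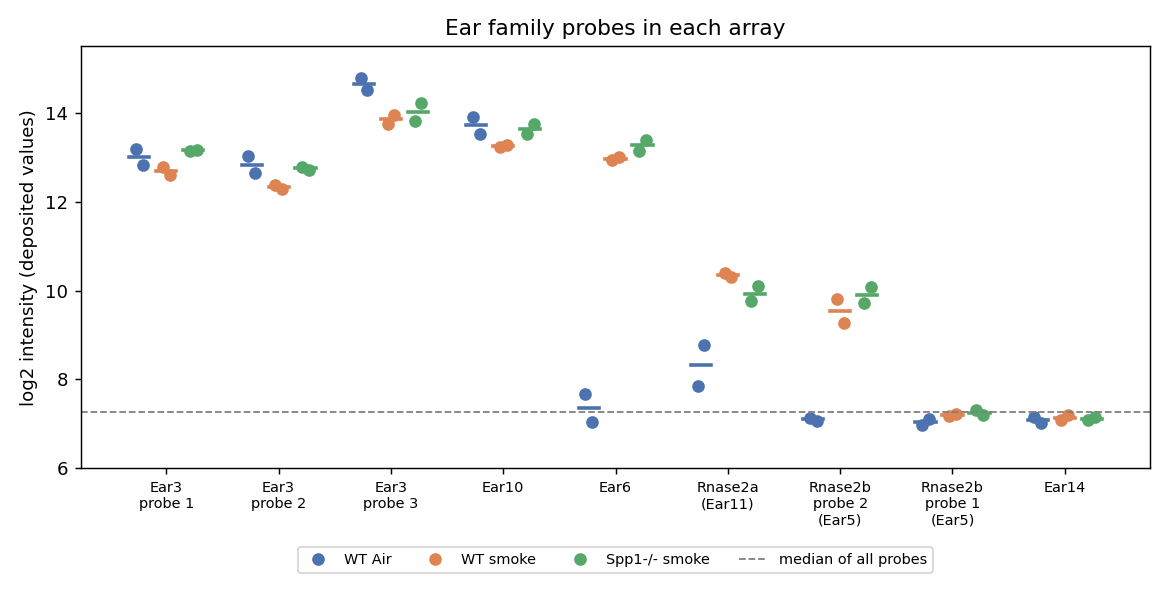
Each point is the deposited log2 intensity of 1 array for 1 family probe, with bars at the group means (2 arrays each) and a dashed line at the median of all probes, 7.264. Ear3 and Ear10 lie high in all groups, Ear6, Rnase2a and Rnase2b probe 2 are higher in both smoke groups than in air, and Ear14 and Rnase2b probe 1 lie near the dashed line throughout.

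Of the 7 family probes in the fit, 3 (Ear6, Rnase2a and Rnase2b probe 2) were at least 2-fold higher in WT smoke than in WT Air with groups that did not overlap, which 3.82% of all fitted probes were. The same 3 were so in Spp1-/- smoke against WT Air, where 4.08% of fitted probes were, and their differences there were 5.91, 1.61 and 2.79 in the order named. No member was at least 2-fold lower in either comparison, against 5.52% and 5.62% of fitted probes. The remaining 4 probes, those of Ear3 and Ear10, were lower in WT smoke without overlap at any size, which 23.4% of fitted probes were, and Ear3 probe 3 alone was so in Spp1-/- smoke against WT Air, as 24.8% were. The family was chosen from this contrast, its 4 bright probes may bind the same transcripts, and Rnase2b probe 2 entered the fit through its smoke arrays. Nothing is therefore read from these counts. With each array left out in turn, 3 members were at least 2-fold higher each time, and the difference of Ear10 stayed between -0.64 and -0.27, the latter without WT Air replicate 1.

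The test that the choice of the family did not use is Spp1-/- smoke against WT smoke, although it shares the WT smoke arrays with that choice. Ear6, Rnase2a and Rnase2b differed little here beside their own smoke differences. For the other probes the 2 differences were closer in size: 0.46 against -0.33 in smoke for Ear3 probe 1, 0.42 against -0.51 for Ear3 probe 2 and 0.37 against -0.46 for Ear10. Ear3 probe 3 had 0.17 against -0.79. Of the 7 family probes 0 passed (limma with Benjamini-Hochberg adjustment over all fitted probes, adjusted p = 0.999982 for each), and of all fitted probes 0% did. At an unadjusted p under 0.05 there were 2 probes, Ear3 probe 1 and Ear3 probe 2, against 4.23% of fitted probes. Both are of the same gene, so they are not separate results, and Ear3 probe 3 had an unadjusted limma p of 0.40. Ear3 probe 1 was higher in Spp1-/- smoke by 0.46, with a 95% interval of the limma fit from 0.08 to 0.85, and Ear3 probe 2 by 0.42, from 0.06 to 0.78.

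For Ear10 the difference was 0.37, with a 95% interval from -0.03 to 0.77, and for Ear3 probe 3 it was 0.17, from -0.30 to 0.63. Without Spp1-/- smoke replicate 2 the latter was -0.04 and without replicate 1 it was 0.37. Ear6 had 0.30 (from -0.29 to 0.89), Rnase2b probe 2 had 0.35 (from -0.21 to 0.91) and Rnase2a had -0.42 (from -1.23 to 0.40). With 1 array left out, these ran from 0.17 to 0.42 for Ear6, from 0.09 (without WT smoke replicate 2) to 0.61 (without WT smoke replicate 1) for Rnase2b probe 2, and from -0.59 to -0.24 for Rnase2a, the low sizes of Ear6 and Rnase2a without Spp1-/- smoke replicate 2 and replicate 1. Without Spp1-/- smoke replicate 2 Rnase2b probe 2 was at 0.17 and without replicate 1 at 0.53. The upper limits of the Ear3, Ear10, Ear6 and Rnase2b probes all lay under 1, the value of a 2-fold difference, while the lower limit for Rnase2a did not exclude a 2-fold lower level. Without overlap between the 2 groups, 4 of the 7 probes were higher in Spp1-/- smoke (Ear10, Ear3 probe 1, Ear3 probe 2 and Ear6), as 17.8% of fitted probes were, and Rnase2a was lower, as 19.7% were. Ear3 probe 1 and Ear3 probe 2 are of the same gene, and the Ear10 probe may bind the same transcripts. The family probes are thus not independent, and nothing is read from these counts. The missed threshold does not show that the genotypes were alike.

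**Figure D3:**
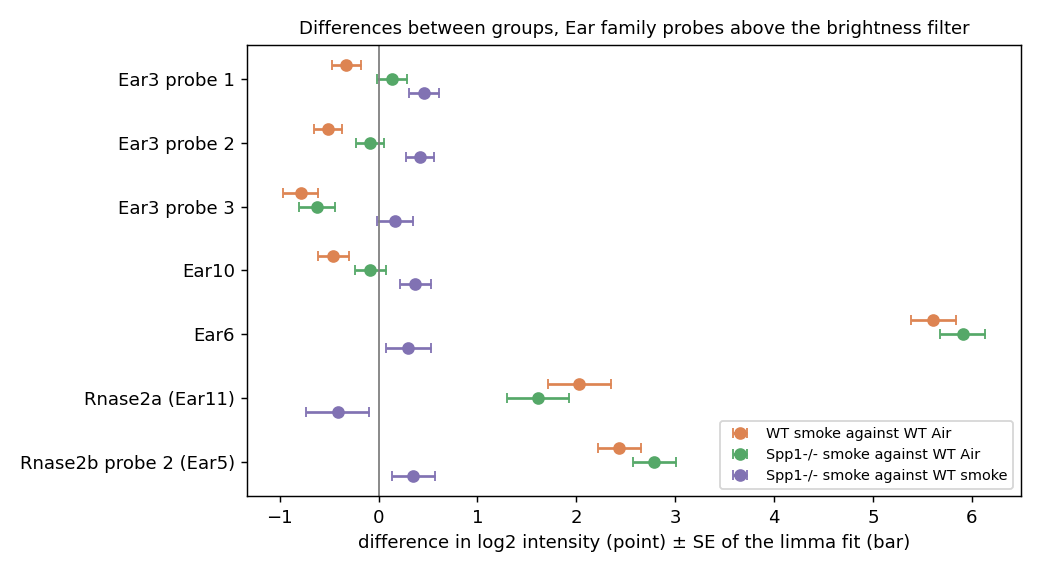
Points are differences in log2 intensity between group means for the 7 family probes in the fit, and bars are the SE of the limma fit, for WT smoke against WT Air (orange), Spp1-/- smoke against WT Air (green) and Spp1-/- smoke against WT smoke (purple). Ear6 is at 5.61 and 5.91 in the comparisons with air, Rnase2a and Rnase2b probe 2 between 1.61 and 2.79, and every purple point lies between -0.42 and 0.46.

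Across the 6 arrays, Ear6 and Rnase2b probe 2 had the closest profiles in the family, with Pearson r = 0.986, and Rnase2a correlated with them at 0.906 and 0.905. Ear10 and Ear3 probe 2 correlated at 0.931, and Ear3 probe 3 with Ear6 at -0.861. These values describe 3 groups of 2 arrays that share their libraries, and a difference between air and smoke is enough to give a high value.

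Outside the family, likeness was measured as the root mean square difference between mean-centred profiles over the 6 arrays, among 12377 genes. Nearest to Ear6 were Npy, the gene of neuropeptide Y (0.79), Mmp12, the macrophage elastase (0.85), and AA467197 (0.86). Even these lay far off, because their range was smaller: Mmp12 stood at 9.41 ± 0.31 (SD, n = 2) in WT Air, 13.35 ± 0.23 in WT smoke and 13.44 ± 0.25 in Spp1-/- smoke. Nearest to Rnase2a were Adam23 (0.15), Slc6a12 (0.17) and Anpep (0.18), and nearest to Rnase2b probe 2 were Mast4 (0.16), Ch25h, cholesterol 25-hydroxylase (0.18), and the chemokine gene Ccl7 (0.21). Nearest to Ear10 were Pgrmc1 (0.06), Plscr1 (0.07) and Elovl5, a fatty acid elongase (0.07), and nearest to Ear3 probe 3 were Cxcr3, Gyg and Calcrl (0.08 each).

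Markers of eosinophils, the cells the family is named for, had dim probes in every group, which does not show that the cells were absent. Of 9 eosinophil markers with a probe, 6 were too dim to enter the fit: the granule protein genes Epx, Prg2 and Prg3, the eotaxin receptor gene Ccr3, the lipoxygenase gene Alox15 and the transcription factor gene Gata1. Epx, eosinophil peroxidase, lay between 6.94 and 7.24 in all 6 arrays and Ccr3 between 6.94 and 7.10, below the median of all probes. Prg2, the major basic protein, lay between 6.82 and 6.92 in the wild type arrays and at 7.64 and 7.37 in Spp1-/- smoke. The 3 markers in the fit were Siglecf, Cebpe and Il5ra, with differences of -0.23, 0.19 and -0.06 between WT smoke and WT Air (-0.40, 0.37 and -0.11 with the floor lowered), and 0 of them passed in either direction, whether adjusted or at an unadjusted p under 0.05, which 30.6% of fitted probes had. The mean log2 level of these 3 ranged from 7.51 to 7.56 in WT Air, from 7.43 to 7.58 in WT smoke and from 7.55 to 7.69 in Spp1-/- smoke. Siglecf is also on the alveolar macrophage list.

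Most markers of alveolar macrophages, the resident phagocytes of the air spaces, had bright probes. Of 18 in the fit, 6 rose and 2 fell in WT smoke against WT Air (limma adjusted p under 0.05), where 8.52% of fitted probes rose and 7.91% fell. The median difference of the 18 was 0.37 against 0.04 over all fitted probes. Among the risers, Atp6v0d2 stood at 7.02 in WT Air, under the median of all probes, and entered the fit through its smoke arrays. Ctsk, cathepsin K, rose by 1.79 ± 0.08 (SE; adjusted p = 0.00185), Car4, a carbonic anhydrase, by 1.56 ± 0.17 (adjusted p = 0.00683) and Itgax, the integrin CD11c, by 0.84 ± 0.11 (adjusted p = 0.0115), whereas Krt79 changed by -1.14 ± 0.13 (adjusted p = 0.00776). Without WT smoke replicate 1 the list had 1 riser and 0 fallers, without replicate 2 it had 2 and 1, and without either Spp1-/- smoke array, which lends only its spread, 4 and 1. The mean log2 level of the 18 genes was between 11.12 and 11.15 in WT Air, 11.43 and 11.45 in WT smoke, and 11.46 and 11.57 in Spp1-/- smoke. The list also held dim members, such as Siglecf, Fabp4 and Fabp1, so brightness differed by probe. The part of these cells in the Ear values was not tested.

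**Figure D4:**
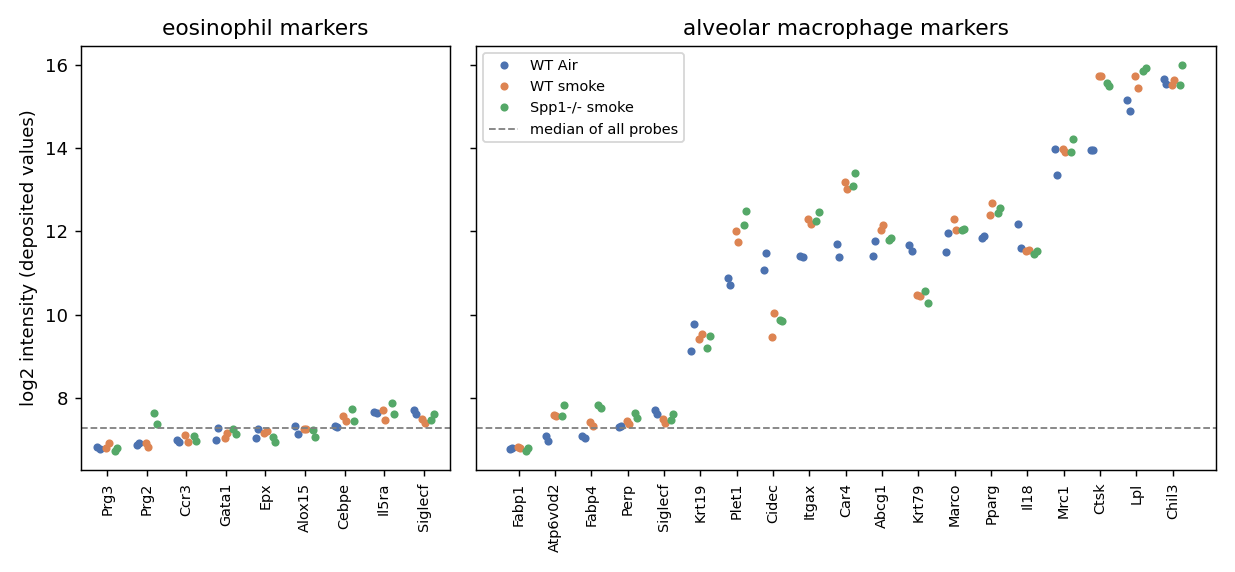
Each point is the deposited log2 intensity of 1 array for the brightest probe of a marker gene, for eosinophils (left) and alveolar macrophages (right), ordered by the WT Air mean, with a dashed line at the median of all probes. The eosinophil markers lie close to the line in all groups, while most alveolar macrophage markers lie between 9 and 16.

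Signals of other lung cells also differed with smoke. In WT smoke against WT Air, 8 of 10 lung epithelium markers fell, 6 of 7 endothelium markers, 7 of 8 fibroblast and smooth muscle markers, 2 of 3 B cell markers and 3 of 5 T and NK cell markers, and 0 of any of these lists rose. Over all fitted probes 7.91% fell and 8.52% rose. Among the fallers, Myh11 of smooth muscle stood at 7.84 in WT Air and 7.03 in WT smoke, and entered the fit through its air arrays. Without WT smoke replicate 1 the fallers were 4, 5, 3, 2 and 0 in the order named, and without replicate 2 they were 5, 6, 4, 2 and 0. The T and NK cell count was 1 without either Spp1-/- smoke array. The mean log2 level of the epithelium list was between 12.20 and 12.35 in WT Air, 10.21 and 10.64 in WT smoke, and 10.15 and 10.41 in Spp1-/- smoke. Of 7 neutrophil markers 1 rose and 1 fell, of 5 monocyte markers 2 fell, of 7 dendritic cell markers 1 rose and 1 fell, and of 2 basophil and mast cell markers 1 fell. Beside the same shares of all fitted probes, lists this short say little. The part of these cells in the Ear differences was not tested.

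Among other secreted ribonucleases, Rnase4 and Rnase6 fell in WT smoke. Of 15 such genes with a probe (leaving out Rnase2a and Rnase2b), 5 were bright enough for the fit, and of these 0 rose and 2 fell, beside 8.52% and 7.91% of all fitted probes. With 5 genes these counts say little about the list. Rnase4, a widely transcribed ribonuclease, stood at 12.01 ± 0.16 (SD, n = 2) in WT Air and 10.81 ± 0.08 in WT smoke (difference -1.21, limma adjusted p = 0.00519), and at 10.97 ± 0.06 in Spp1-/- smoke. Rnase6, a ribonuclease of phagocytes with antibacterial activity, stood at 11.89 ± 0.02, 11.29 ± 0.17 and 11.77 ± 0.07 in the same order (difference in wild type -0.60, adjusted p = 0.0260). Its order of groups was that of Ear10, with Spp1-/- smoke between WT smoke and WT Air, and its genotype difference of 0.48 did not pass (adjusted p = 0.999982). Ang, angiogenin, and Rnaset2b had differences of -0.46 and 0.16 that did not pass. Of these, 0 fell without WT smoke replicate 1, 1 without WT smoke replicate 2 or either Spp1-/- smoke array, and 3 without WT Air replicate 1. With array weights or with only the compared groups in the fit 1 fell.

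Genes of alternative macrophage activation, the state that interleukins 4 and 13 induce, moved only in part. Of 14 in the fit 3 rose and 0 fell in WT smoke, with a median difference of 0.21, beside 8.52% and 7.91% of all fitted probes. The chemokine gene Ccl17 rose by 2.53 ± 0.13 (SE; limma adjusted p = 0.00237), the arginase gene Arg1 by 1.15 ± 0.20 (adjusted p = 0.0234), from a level below the median of all probes (2.24 with the floor lowered), and the inhibitory Fc receptor gene Fcgr2b by 0.74 ± 0.12 (adjusted p = 0.0177). Arg1 entered the fit through its smoke arrays, so its p-value is of a difference that let it in. Mgl2 differed by 0.27 and did not pass (limma adjusted p = 0.122). Without either WT smoke array 1 of these genes rose.

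Genes of type 2 cytokine and GM-CSF signalling had 4 risers and 2 fallers of 19 in the fit, beside 8.52% and 7.91% of all fitted probes, with a median of 0.09. Bhlhe40, a transcription factor of macrophages, rose by 1.16 ± 0.11 (SE; limma adjusted p = 0.00558) and Spi1, which encodes PU.1, by 0.50 ± 0.09 (adjusted p = 0.0257; 0.86 with the floor lowered). The epithelial cytokine genes Il33 and Tslp changed by -1.40 ± 0.22 (limma adjusted p = 0.0184) and -0.70 ± 0.10 (limma adjusted p = 0.0130), and by -1.85 and -1.40 with the floor lowered. Tslp stood at 7.76 in WT Air, and at 7.06 in WT smoke and 7.10 in Spp1-/- smoke, under the median of all probes. It entered the fit through its air arrays, so its p-value is of a difference that let it in. The cytokine genes Il4, Il5 and Csf2 were too dim to enter the fit. Without WT smoke replicate 1 there were 0 risers and 0 fallers, without replicate 2 there were 1 and 0, without either Spp1-/- smoke array 1 and 1, and without WT Air replicate 2 there were 2 and 2. Array weights left 2 risers, and the fit of the compared groups alone gave 1 riser and 1 faller. Between Spp1-/- smoke and WT smoke 0 genes of any of these lists passed, as for all fitted probes.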

How the data were processed

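The values were the deposited log2 intensities of 45281 probes on 6 arrays. Trizol extraction and biotin-labelled cRNA for Illumina arrays are recorded per the labels' protocols. Limma is the tool named per the submitters' processing notes (no version). The sources used here do not give the background correction. The sorted columns differed by at most 0.0056, as after quantile normalization. A table of raw signals was not used: its 6 signal and 6 detection columns could not be matched to samples by name, so the planned neqc alternative was not run and detection was not assessed.

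Genes were named from the platform annotation, with 34807 of 34885 single symbols matched on Entrez number to the RefSeq table of GRCm38.p6. Limma 3.58.1 in R 4.3.3 (1 coefficient per group, all arrays, 3 residual and 2.02 prior degrees of freedom) was fitted to the 22641 probes in the brighter 50%, with Benjamini-Hochberg adjustment over these and calls under 0.05. Lists used each gene's brightest probe, without family members. An exact test of 2 against 2 arrays cannot give p below 0.333, so none was used, and the number of arrays limits the precision. The fit was tested on simulated data.

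Named genes were all family probes, all eosinophil markers with a probe, for each other context list at most 4 genes (lowest p in smoke against air), and the 3 nearest genes of each member gene. Other dim genes, and the Rnase6 genotype value, were named after their values were seen. Members and lists were chosen with earlier results of these data known. Promoters were aligned with Biopython 1.88. Alternatives were no filter, the brighter 25%, only the compared groups, a robust prior with an intensity trend, weights per array, a replicate block, 1 probe per gene, a lowered floor (minimum removed, offset 16) and each array left out.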

Additional observations from a re-analysis of the deposited data

How the results depend on the processing

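Under every alternative run, 3 family probes were at least 2-fold higher than in WT Air in each smoke group, and 0 passed between the genotypes (lowest limma adjusted p 0.517, for Ear3 probe 2, highest 0.999999). With the floor lowered, the differences from WT Air of Ear6 became 6.68 in WT smoke and 6.98 in Spp1-/- smoke, and those of Rnase2b probe 2 became 3.57 and 3.96. The genotype difference of Ear3 probe 3 ran from -0.0370 (without Spp1-/- smoke replicate 2) to 0.371 (without replicate 1), and the smoke difference of Il5ra from -0.176 (without WT smoke replicate 1) to 0.0588 (without replicate 2), so both changed sign; the cause was not tested. The ribonuclease, eosinophil, alveolar macrophage, alternative activation and type 2 lists together held 18 called genes in WT smoke against WT Air, 11 with only the compared groups in the fit, and between 2 (without WT smoke replicate 1) and 21 (without WT Air replicate 1) with 1 array left out, when fewer arrays estimate the spread. Without WT smoke replicate 2 there were 6. Markers of the other cell types are not in this count: alternatives for the 5 lists that mostly fell were chosen after seeing the data, and moved the T and NK cell count to 1 with no filter, array weights or only the compared groups, while the neutrophil, monocyte, dendritic, basophil and mast cell counts have no alternatives. With the replicate block there were 16 called genes in these lists, and 0 family probes passed between the genotypes. Deviations of same-numbered arrays correlated at 0.13, -0.07 and -0.02 between groups. No strong effect shared by array number was thus seen, but these values cannot show whether the arrays were paired. A group left with 1 array was taken to have the spread of the other groups. Signals near the floor limit the values of Ear6 and Rnase2b in air.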
